A study of Mus musculus with 4 samples.

Results

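The comparison described here set the liver RNA of male mice given aristolochic acid I (AAI) at 2 mg/kg/day against that of male mice given corn oil, on 1 array each, which are 2 of the 4 arrays of the study. Both arrays were picked out by their labels, but the comparison was chosen with earlier results of these data known. The mice were wild-type C57BL/6 males, labelled 6 weeks old, injected intraperitoneally on 5 days a week for 3 weeks. Corn oil was the vehicle and carried no AAI. The other 2 arrays held liver RNA of wild-type C57BL/6 females of the same labelled age, on the same injection schedule, given corn oil or AAI at 5 mg/kg/day. Every array held a pool of equal amounts of total RNA from the livers of 5 mice, labelled with Cy3 and hybridised to a 1-colour mouse expression array. With 1 pool per group there is no replicate check, so differences below are fold changes between 2 pools and no p-value is given. Sex and dose cannot be told apart between the male and the female arrays. In whole-liver RNA, fewer cells of a type and less RNA per cell cannot be told apart either.

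AAI is a nitrophenanthrene acid of Aristolochia plants. Nitroreduction, in which the cytosolic quinone reductase NQO1 takes part, turns it into a reactive species that binds DNA, whereas oxidative demethylation by hepatic cytochromes P450 detoxifies it. The kidney is its best known target, and the liver is where much of it is metabolised. The male mouse liver is also known for a set of genes that are held at male or female levels by the pattern of growth hormone secretion, which acts through the growth hormone receptor, the kinase JAK2 and the transcription factor STAT5B. Pulses of the hormone keep male-biased genes high and female-biased genes low, and a more continuous supply does the reverse.

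Levels are log2 normalized intensities, 1 probe standing for each gene, and a difference of 1 on this scale is 2-fold. A gene was counted as higher or lower when the 2 male arrays differed at least 2-fold. Where a probe was not well above background on 1 array, its change was set against the lowest signal well above background there and is given as "at least". Probes for the same gene, where the array held several, differed in their log2 ratio by a median standard deviation (SD) of 0.24 over 8601 genes, and for 10% of those genes by more than 0.69. Spots of 1 probe printed many times on an array had a log2 SD of 0.05 with AAI and 0.08 with corn oil. These spreads are technical and say nothing about variation between mice.

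The liver identity of both pools was checked first. All 25 hepatocyte markers were well above background on both arrays, and none differed by 2-fold. Albumin (Alb) measured 19.12 with corn oil and 19.15 with AAI, transthyretin (Ttr) 18.24 and 17.92, and the alpha-1 antitrypsin gene Serpina1a 19.04 and 19.12. The male pools did differ in other tissues' genes. The summed intensity of 34 skeletal muscle markers was 44.1-fold higher on the AAI male array, and markers of brown fat, fat, adrenal cortex and chromaffin cells were also higher, as described at the end. The 4 arrays did not stand equally far apart. Of 40662 probes well above background on every array, 795 were at least 2-fold above each of the other 3 arrays on the corn oil male array and 406 on the AAI male array, against 76 and 67 on the arrays of AAI females and corn oil females. At least 2-fold below each of the other 3 were 204 probes on the AAI female array, 170 on the corn oil male array, 52 on the corn oil female array and 37 on the AAI male array. The ratio also moved with the base composition of the probe. Its median was -0.14 for 443 genes whose probe held under 35% G and C, and 0.11 for 5845 genes at 50% or above. On the AAI male array, 92 spots had a processed signal far from their background-subtracted signal and were left out. By the background-subtracted signal, 80 of the 85 with a ratio would be at least 2-fold higher with AAI, and which of the signals is right was not settled. Of the listed genes, this removed Cyp3a44, whose log2 ratio by that signal would be 7.19.

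Of 30489 genes measured on at least 1 of the male arrays, 1058 (3.47%) were at least 2-fold higher with AAI and 1389 (4.56%) at least 2-fold lower, so that 2447 (8.03%) changed in either direction. Counts for the gene lists below are to be read beside these shares. For 221 of the higher and 204 of the lower genes the change is a bound. The median log2 ratio over all genes was 0.00, and 9 in 10 genes lay between -0.95 and 0.84. Changes of 8-fold or more went upwards for 148 genes and downwards for 44. Of 437 changed genes with a further probe above background, 289 had all further probes on the same side of 0.

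**Figure D1:**
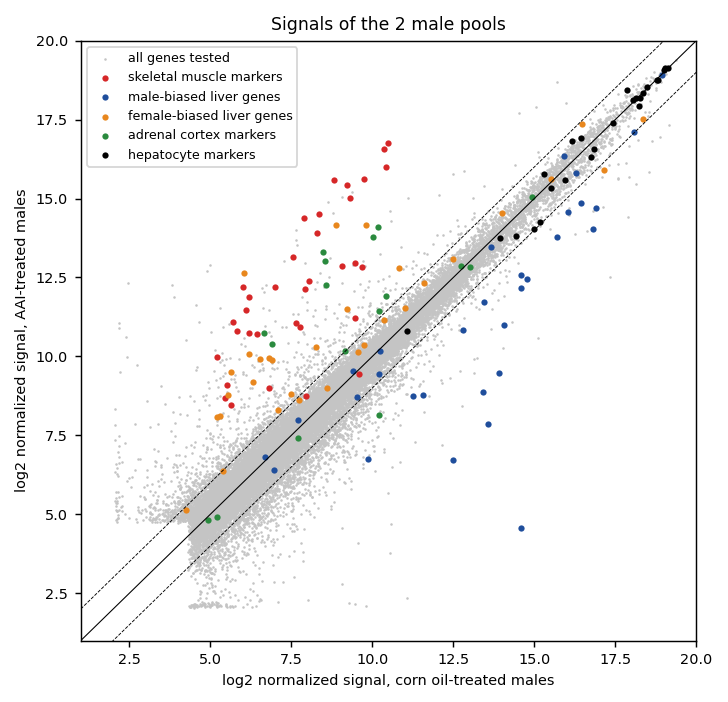
Log2 normalized intensity of each gene on the corn oil male array (x axis) and on the AAI male array (y axis), with genes of the described lists in colour and dashed lines at 2-fold. Most genes lie between the lines. Muscle markers sit above the upper line, and male-biased genes such as Slco1a1 and Elovl3 sit below the lower one.

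Male-biased liver genes were lower after AAI. Of 31 listed and measured, 19 fell at least 2-fold and 0 rose, with a median log2 ratio of -1.91, beside 4.56% lower and a median of 0.00 over all genes. Female-biased genes moved the other way: 17 of 32 measured rose and 1 fell, with a median of 1.27, beside 3.47% higher over all genes. In females the medians of the same lists were -0.07 and -0.02. Both lists were written with earlier results of these data known, so the contrasts with all genes are not independent of the data. Of the 34 female-biased genes on the array, A1bg and Prom1 were too dim in both male pools to be measured and are not among the 32.

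Windows of 250 bases just upstream of the start site are shown for 4 genes that fell and 2 that rose, because STAT5 binds the palindrome TTCNNNGAA and these genes had large changes or held that motif. The sequences are from RefSeq on build GRCm38.p6, 5′ to 3′ on the gene's strand, with the motif in capitals. The palindrome reads the same on both strands.
Hsd3b5, chr3:98645535-98645784, minus strand: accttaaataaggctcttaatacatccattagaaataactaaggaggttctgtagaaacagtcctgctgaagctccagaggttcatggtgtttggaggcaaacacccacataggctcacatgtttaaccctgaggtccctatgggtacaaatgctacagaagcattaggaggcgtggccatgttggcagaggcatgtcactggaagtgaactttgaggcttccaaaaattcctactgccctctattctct
Slco1a1, chr6:141946963-141947212, minus strand: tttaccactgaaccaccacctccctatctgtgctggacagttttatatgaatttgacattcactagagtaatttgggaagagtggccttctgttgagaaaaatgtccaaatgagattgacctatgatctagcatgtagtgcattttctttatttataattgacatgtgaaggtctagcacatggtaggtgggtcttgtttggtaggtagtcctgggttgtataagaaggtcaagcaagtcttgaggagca
Keg1, chr19:12695540-12695789, plus strand: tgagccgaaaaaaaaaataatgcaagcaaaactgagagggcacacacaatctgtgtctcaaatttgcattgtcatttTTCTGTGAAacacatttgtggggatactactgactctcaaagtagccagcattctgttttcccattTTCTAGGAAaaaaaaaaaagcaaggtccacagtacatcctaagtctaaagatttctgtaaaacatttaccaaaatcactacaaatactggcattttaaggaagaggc
C8a, chr4:104876399-104876648, minus strand: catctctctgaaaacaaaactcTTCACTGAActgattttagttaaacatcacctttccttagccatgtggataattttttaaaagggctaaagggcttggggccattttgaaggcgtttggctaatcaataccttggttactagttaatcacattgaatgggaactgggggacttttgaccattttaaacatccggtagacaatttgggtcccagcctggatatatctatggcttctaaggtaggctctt
Cyp2b9, chr7:26173159-26173408, plus strand: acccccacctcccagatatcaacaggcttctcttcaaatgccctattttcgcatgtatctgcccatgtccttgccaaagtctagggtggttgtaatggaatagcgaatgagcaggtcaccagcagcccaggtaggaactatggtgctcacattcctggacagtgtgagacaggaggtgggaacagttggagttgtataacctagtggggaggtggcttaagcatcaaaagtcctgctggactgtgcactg
Sult3a1, chr10:33857472-33857721, plus strand: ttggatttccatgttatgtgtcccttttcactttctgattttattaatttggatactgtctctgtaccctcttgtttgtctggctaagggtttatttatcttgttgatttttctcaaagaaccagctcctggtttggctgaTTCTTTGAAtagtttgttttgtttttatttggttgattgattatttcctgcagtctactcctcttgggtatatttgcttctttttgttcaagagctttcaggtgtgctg
The motif lay 173 and 107 bases before the start of Keg1, 228 before that of C8a and 109 before that of Sult3a1, and these letters were not in the windows of Hsd3b5, Slco1a1 or Cyp2b9. Of the 31 male-biased genes on the array, 23 had windows in the RefSeq table. The motif was in 5 of their 27 windows, which came from 4 genes. Of the 34 female-biased genes, 25 had windows, and 4 of their 32, from 4 genes, held it. Over all 32851 windows of the same length, 7.02% held it.

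Hsd3b5, which encodes a steroid dehydrogenase of the male liver, showed the largest fall. It measured 14.60 on the corn oil male array and was not well above background on the AAI male array, at 4.55, so that it was at least 954-fold lower. The female arrays gave 3.89, not well above background, with corn oil and 4.70 with AAI. The probe lies at 98422576 to 98422635 of chromosome 3 on build mm9. Because it was not well above background with AAI, its change is bounded by the dimmest signal that the AAI male array could resolve.

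Slco1a1, an uptake transporter for organic anions of the sinusoidal membrane, was at 12.49 with corn oil and 6.71 with AAI, a 54.9-fold fall. A further probe gave a log2 ratio of -7.85. The females measured 8.60 with corn oil and 6.34 with AAI, so both AAI arrays were lower than their vehicle arrays and the AAI male level was below that of corn oil females. The probe is on chromosome 6, 141856493 to 141856552 (mm9). Elovl3, an elongase of very long chain fatty acids, was at 13.58 with corn oil and 7.87 with AAI, a 52.4-fold fall, while the females measured 7.69 and 6.89. Its probe lies at 46209325 to 46209384 of chromosome 19 (mm9). The fatty acid and arachidonic acid hydroxylase genes Cyp4a12a and Cyp4a12b, near-identical copies on chromosome 4 whose probes may share transcripts, fell 23.3-fold and 21.5-fold. Cyp4a12a went from 13.42 to 8.88, and Cyp4a12b from 13.92 to 9.49, beside 7.07 and 8.21 on the corn oil female array.

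The remaining fallers of the male-biased list lost less. The pseudogene-annotated serpin Serpina4-ps1 went from 9.87 to 6.74. Cyp7b1, the oxysterol 7alpha-hydroxylase, fell 8.33-fold from a level of 14.06, and its further probe gave -2.75. Serpina4-ps1 ended beside its corn oil female level of 6.77, whereas Cyp7b1 stayed above its level of 9.62 there. Of the genes whose promoter is printed, C8a, a subunit of the membrane attack complex, fell from 14.59 to 12.18, with 12.31 in corn oil females. Keg1, a gene of the glycine N-acyltransferase family, fell from 12.79 to 10.85, with 10.68 in corn oil females. Genes listed as male-biased that stayed within 2-fold included the alpha-1 antitrypsin paralog Serpina1e, at 18.94 and 18.90 in the males. Its signal is among the brightest of the array. At 18.87 in corn oil females, its probe differed little between the sexes here. Gstp1, a glutathione transferase, stood apart between the sexes, at 16.04 and 14.57 in males, a 2.77-fold fall, and at 13.58 and 15.13 in females, where it rose 2.93-fold.

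Cyp2b9, a female-biased cytochrome P450, was at 8.87 and 14.15, a 39.0-fold rise, and the females measured 15.57 and 15.14. Its probe lies at 26995607 to 26995666 of chromosome 7 (mm9). Cyp2b10, the classical target of the constitutive androstane receptor, rose 20.4-fold, from 9.81 to 14.17, and Cyp2b13 rose 14.6-fold, from 6.20 to 10.06. In females Cyp2b10 was at 16.04 with corn oil and at 14.80 with AAI, a 2.35-fold fall. These genes lie next to each other and share sequence, so their probes may not tell them apart fully.

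Slc22a27, a member of the organic anion transporter family, rose 14.4-fold, from 5.65 to 9.50, and its further probe gave 4.12. Sult3a1, a sulfotransferase with amine substrates, rose 10.4-fold, from 6.54 to 9.91, against 12.92 in corn oil females. Both stayed below the female level, where Slc22a27 was at 11.80. Cux2, a repressor of male-biased genes in the female liver, was at 5.53 and 8.78, a 9.50-fold rise, and passed the 8.40 of corn oil females. Sult1e1, the estrogen sulfotransferase, went from 6.81 to 9.94 and the females from 8.61 to 9.65, a rise in both. Some other female-biased genes were not counted as higher, although Sult2a1 and Sult2a2 also moved upwards. Sult2a1 and Sult2a2, hydroxysteroid sulfotransferases, were at 16.93 and 16.50 in corn oil females but at 5.14 and 6.35 in AAI males. In corn oil males Sult2a1 was not well above background, which makes it at least 1.80-fold higher with AAI, and Sult2a2 was at 5.39. Cyp3a41a and Cyp3a16, listed as female-biased, were no brighter in corn oil females than in corn oil males, with 18.20 in females against 18.37 in males for Cyp3a41a and 16.75 against 17.14 for Cyp3a16. By qPCR, however, the paper reports Cyp3a41 as nearly absent from male liver. Which transcripts the Cyp3a41a and Cyp3a16 probes read in males was not tested. The signal of the Cyp3a16 probe fell 2.35-fold in the males, to 15.91.

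**Figure D2:**
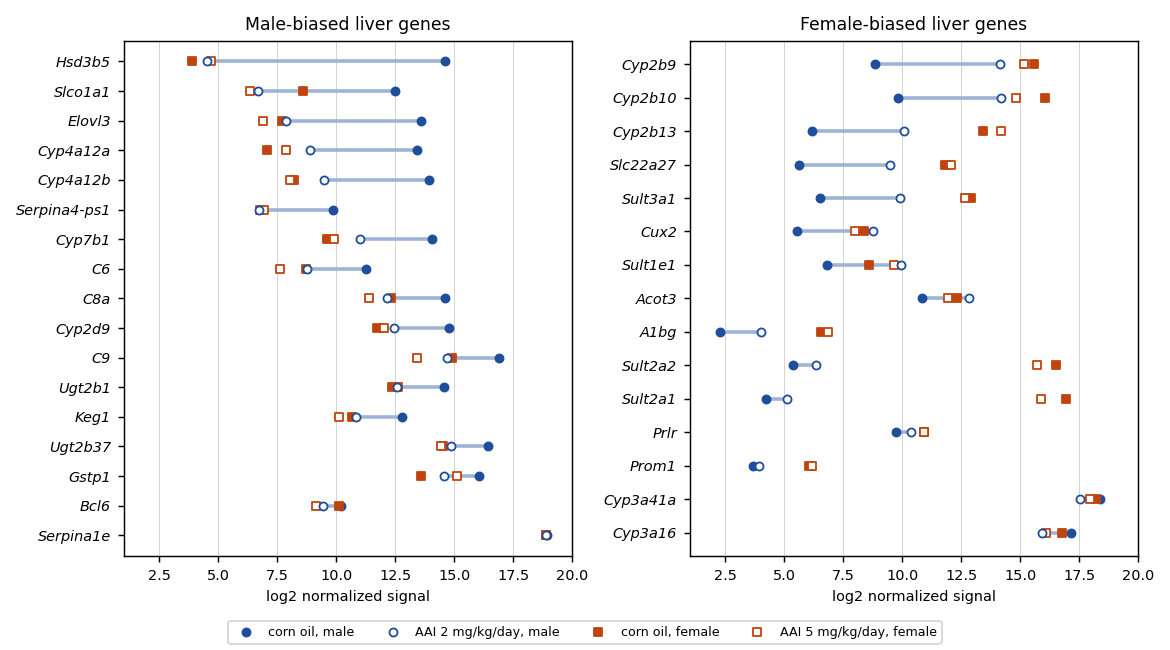
Log2 normalized intensity of the male-biased genes (left) and female-biased genes (right) named in the text, on the 4 arrays, 1 row per gene and 1 point per array. On the AAI male array, male-biased genes such as Slco1a1 and Elovl3 lie to the left of the corn oil male point, and female-biased genes such as Cyp2b9 and Sult3a1 to its right.

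Of 21 measured members of the growth hormone to STAT5 pathway itself, 2 rose at least 2-fold and 0 fell, with a median of -0.16. This is 9.52% of the list, near the 8.03% over all genes. The members that rose were Cux2, described above, and Socs3, a feedback inhibitor of cytokine signalling, which was at 9.62 and 10.81 in males and at 9.43 and 10.50 in females. The growth hormone receptor Ghr measured 14.34 and 13.63, and 3 further probes gave log2 ratios from -1.12 to -0.53. The related prolactin receptor Prlr measured 9.74 and 10.36, with further probes at 0.25 and 1.09. By their main probes all the rest stayed within 2-fold. The kinase Jak2 measured 8.45 and 8.54 and its adaptor Sh2b1 10.91 and 11.08. Of the transcription factors, Stat5b measured 10.89 and 10.59 and Stat5a 14.05 and 14.13. Stat3 measured 11.92 and 12.53, with further probes on both sides of 0.

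The feedback inhibitors and phosphatases differed among themselves. Socs2, an inhibitor induced by growth hormone, measured 11.62 and 10.85 in males, a log2 ratio of -0.77, and had a log2 ratio of -1.15 in females. Its 2 further probes in males gave -0.70 and -0.68. Cish, another such inhibitor, measured 10.57 and 10.87, and Socs1 7.33 and 7.59. The ratios of these inhibitors thus lay on both sides of 0. Of the phosphatases, Ptpn1 measured 11.66 and 11.49, Ptpn2 10.12 and 10.38, and Ptpn11 12.76 and 12.40. The hormone's best known target, Igf1, measured 16.48 and 16.21, but its further probes gave log2 ratios of -0.12 and 1.36. Its serum partners Igfals and Igfbp3 measured 9.86 and 9.56, and 11.65 and 12.17. The other transcriptional regulators of the list were lower by less than 2-fold, with Onecut1 at 12.25 and 11.27, Bcl6, a repressor of female-biased genes in the male liver, at 10.21 and 9.45, and Hnf4a at 15.96 and 15.58.

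Major urinary proteins are pheromone carriers that the male mouse liver makes in large amounts. All 12 Mup genes were well above background on both male arrays. Of these, 6 fell at least 2-fold (50%, beside 4.56% over all genes), with a median of -1.34. The largest fall was in Mup11, from 15.10 to 10.59, and its further probe gave -4.95. Mup6 fell from 18.13 to 15.45 and Mup-ps12, an annotated pseudogene, from 17.93 to 15.67. By contrast Mup1, Mup19, Mup21 and Mup4 differed by at most 0.12 in log2 ratio, at levels of 18.02 to 19.04 across both male arrays. The further probe for Mup21 gave -4.25, and that for Mup20 gave -1.29 where its main probe gave -0.49. In females all 12 fell, with a median of -3.28, and Mup1 went from 19.01 to 15.38. These genes are near-identical copies in a cluster on chromosome 4, and a probe may read several of them, so single members are uncertain.

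Genes of AAI metabolism changed in both directions in the males. Of 25 measured genes for enzymes and transporters linked to AAI, described here in full, 1 rose and 3 fell, with a median of -0.17. Changed genes were 16.0% of this list, beside 8.03% over all genes. Nqo1, the quinone reductase that activates AAI, rose 3.44-fold, from 8.31 to 10.09, and in females 2.82-fold, from 9.27 to 10.76. Its probe lies at 109912440 to 109912499 of chromosome 8 (mm9). The 3 that fell were the efflux pump Abcg2, from 14.12 to 13.06, the detoxifying cytochrome P450 gene Cyp3a11, from 16.56 to 15.47, and the basolateral organic anion transporter Slc22a7, from 10.16 to 9.05. Under the alternative processings each of these 3 falls went under 2-fold at least 1 time. Their smallest log2 ratios there were -0.94 for Abcg2, -0.89 for Cyp3a11 and -0.99 for Slc22a7. In females none of these 3 fell by 2-fold, with Abcg2 at 12.57 and 13.39, Cyp3a11 at 16.21 and 16.28, and Slc22a7 at 9.26 and 8.83.

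The demethylating cytochromes P450 of the CYP1A family were within 2-fold. Cyp1a1 measured 6.46 and 6.29 and Cyp1a2 11.45 and 11.08. In females Cyp1a1 fell 3.43-fold, from 7.70 to 5.92. The electron donors varied little: Por measured 15.19 and 15.69, Cyb5a 18.47 and 18.47, Cyb5b 11.14 and 10.78, and Cyb5r3 15.57 and 15.10. Other P450 genes that may act on AAI also stayed within 2-fold. Cyp2c29 measured 16.38 and 16.51, Cyp2c37 17.15 and 17.13, and Cyp3a25 15.82 and 15.64. Cyp2c39 was not well above background with corn oil and measured 4.99 with AAI, at least 1.63-fold higher.

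The reductases and the conjugating enzymes were steadier than Nqo1. Nqo2 measured 13.50 and 13.09 and the xanthine oxidoreductase gene Xdh 11.23 and 11.13. Sult1a1, a phenol sulfotransferase that can activate the hydroxylactam of AAI, measured 15.42 and 16.29, a log2 ratio of 0.87 that its further probe matched at 0.90. Sult1b1 measured 12.09 and 12.36. The acetyltransferases Nat1 and Nat2 measured 7.46 and 6.98, and 10.83 and 10.69. The cyclooxygenase Ptgs1 measured 11.05 and 10.29, and Ptgs2 was not well above background on any of the 4 arrays. Uptake transporters of the kidney proximal tubule, Slc22a6 and Slc22a8, measured 9.64 and 9.61, and 8.79 and 8.45. The canalicular pump Abcc2 measured 12.03 and 11.66. Gnmt, the glycine N-methyltransferase, measured 17.01 and 17.42 in males and 17.66 and 17.59 in females.

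**Figure D3:**
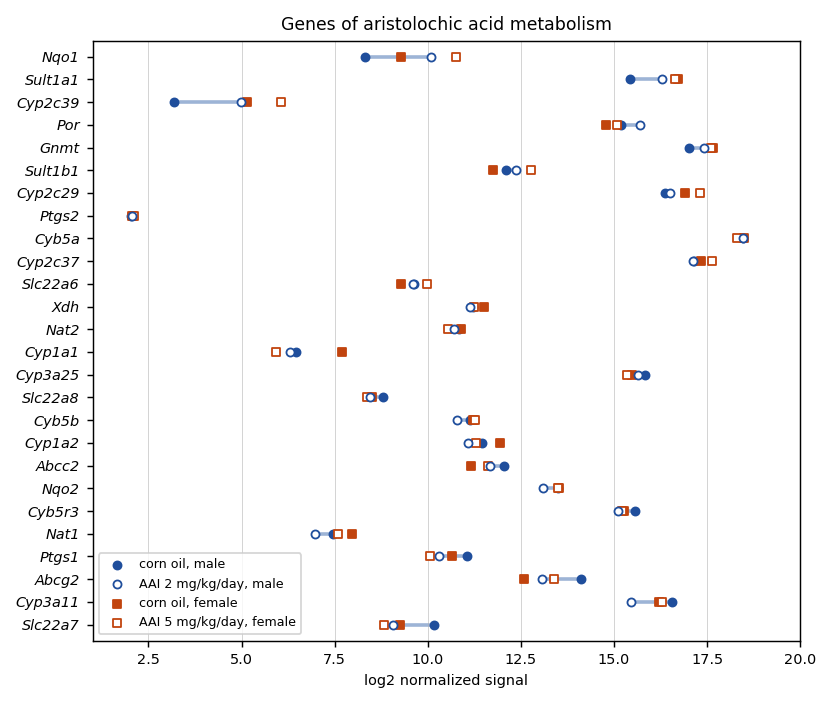
Log2 normalized intensity of the genes linked to AAI metabolism on the 4 arrays, 1 row per gene. Nqo1 is the only one of the 25 measured genes more than 2-fold higher in AAI males, and Abcg2, Cyp3a11 and Slc22a7 are more than 2-fold lower. Those falls were under 2-fold in some alternative processings.

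Nqo1 is a target of the transcription factor Nrf2. Of 33 listed and measured Nrf2 targets, 2 rose and 1 fell, with a median of -0.03, and the 9.09% that changed are near the 8.03% over all genes. Besides Nqo1, Gstm4 rose, from 12.64 to 13.89, and Aox1, an aldehyde oxidase, fell from 12.60 to 11.52. The defining targets stayed within 2-fold: Gclc measured 13.70 and 13.13, Gclm 13.87 and 13.37, Hmox1 12.02 and 11.58, Srxn1 12.04 and 12.45, and Txnrd1 12.52 and 12.48. The aryl hydrocarbon receptor list held 14 measured genes, of which 3 (21.4%, beside 8.03% over all genes) rose and 0 fell, with a median of -0.09. They included Nqo1 and Cyp1b1, which went from 5.88 to 7.02, while the defining target Cyp1a1 stayed within 2-fold.

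Targets of the nuclear receptors CAR and PXR split by family. Of 27 measured, 3 rose and 4 fell (25.9%, beside 8.03% over all genes), with a median of 0.49. The 3 that rose were Cyp2b9, Cyp2b10 and Cyp2b13, also female-biased. Those that fell were Cyp3a11, the defining target of PXR, and Cyp3a16, Cyp2c55 and the carboxylesterase Ces2c. Ces2c fell 4.05-fold, from 12.05 to 10.03, and Cyp2c55 2.31-fold, from 8.36 to 7.15, though a further probe for Cyp2c55 gave -0.42. The receptors themselves stayed within 2-fold, with Nr1i3 (CAR) at 11.37 and 11.74 and Nr1i2 (PXR) at 9.80 and 9.52.

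Most families of drug metabolism moved in part. Of 19 carboxylesterases, which hydrolyse esters and amides, 7 fell and 0 rose. The share that fell was 36.8%, beside 4.56% over all genes, and the median was -0.69. Ces3a was at 17.11 and 14.73, a 5.20-fold fall, and Ces3b at 13.88 and 11.78. In females both also fell, Ces3a from 14.90 to 13.25 and Ces3b from 12.03 to 10.79. Of 14 UDP-glucuronosyltransferases, 4 fell (28.6%, beside 4.56% over all genes) and 0 rose, with a median of -0.89. All 4 were of the Ugt2b cluster: Ugt2b1 fell from 14.58 to 12.58, Ugt2b37 3.02-fold, Ugt2b5 2.66-fold and Ugt2b36 2.06-fold. Ugt2b1 and Ugt2b37 are on the male-biased list too. Of 9 Cyp2d genes 4 fell (44.4%, beside 4.56% over all genes), with a median of -0.67. Among them were Cyp2d9, a male-biased steroid 16alpha-hydroxylase, from 14.77 to 12.45, and Cyp2d34, from 10.32 to 7.94. In females Cyp2d34 went from 6.12 to 7.18.

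Glutathione transferases and sulfotransferases held members that rose. Of 22 glutathione transferase genes 5 rose and 1 fell (27.3%, beside 8.03% over all genes), with a median of 0.53. Mgst3, a microsomal glutathione transferase, rose 4.12-fold, from 10.50 to 12.55, and also in females, from 11.81 to 13.18. Mgst2 rose 3.71-fold, from 6.51 to 8.40, and Gstt3 3.25-fold, from 12.62 to 14.32. Of 16 sulfotransferase genes 3 rose and 1 fell (25%, beside 8.03% over all genes), with a median of 0.57. Sult2a7 rose 9.71-fold, from 9.05 to 12.33, while its neighbour Sult2a8 fell 4.69-fold, from 16.83 to 14.59.

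**Figure D4:**
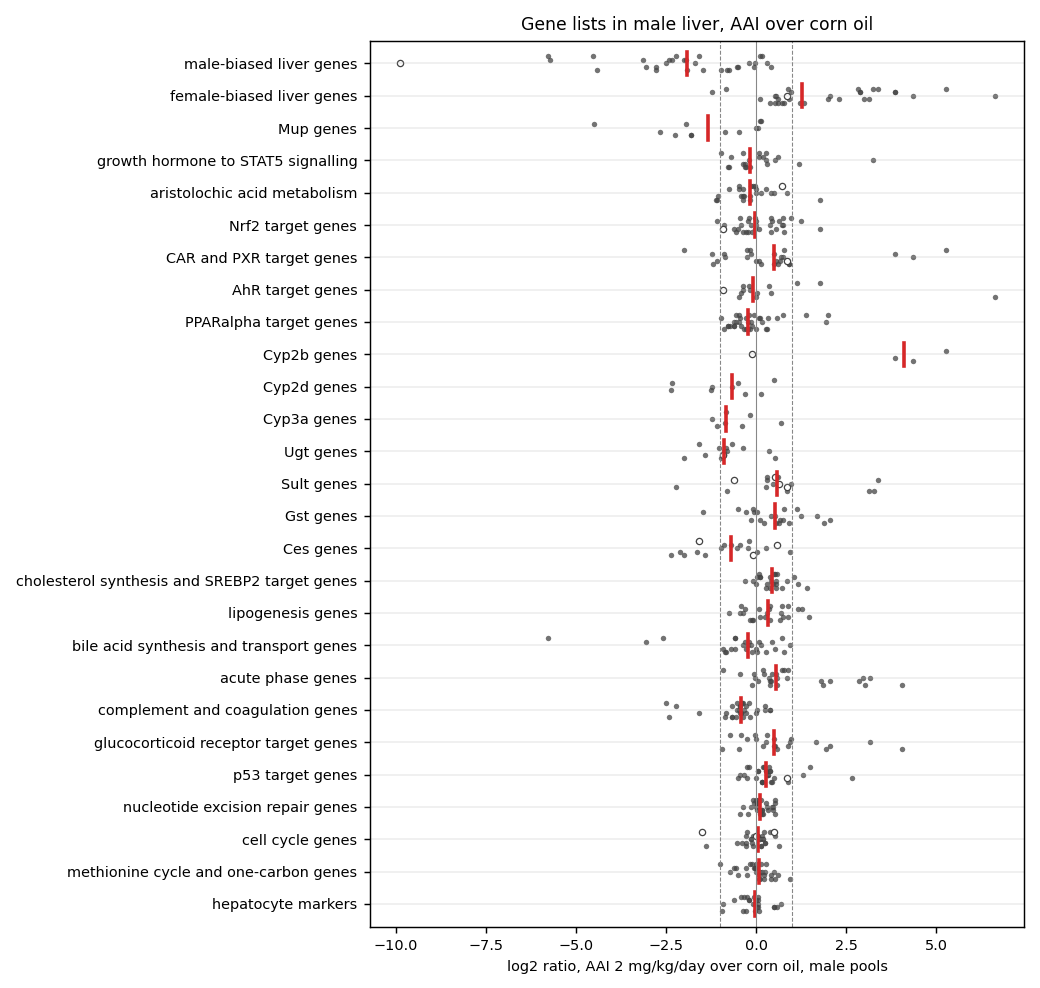
Log2 ratio of AAI over corn oil in males for every measured gene of the described lists, 1 row per list, with the list median marked and lines at 2-fold. The male-biased list lies left of 0 with a median of -1.91, and the female-biased list right of 0 with a median of 1.27, while the nucleotide excision repair and one-carbon lists hold no gene past 2-fold.

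Among lipid genes, 3 of 24 for cholesterol synthesis rose and 0 fell, 12.5% beside 8.03% over all genes, with a median of 0.44. Fdps, the farnesyl diphosphate synthase, rose 2.66-fold, from 13.13 to 14.54, Nsdhl 2.26-fold, from 10.11 to 11.29, and Pmvk 2.06-fold, from 12.94 to 13.98. Under the alternative processings the smallest log2 ratio was 0.38 for Nsdhl and 0.95 for Pmvk, which is under 2-fold. Hmgcs1, the synthase upstream of mevalonate, measured 14.06 and 13.98. Of 24 lipogenesis genes, 3 rose and 0 fell, 12.5% beside 8.03% over all genes, with a median of 0.33. Scd2, a desaturase that fat and brain also express, rose from 8.30 to 9.75. Thrsp, a regulator of lipid synthesis, rose from 13.07 to 14.35, and Acss2, which makes acetyl-CoA, from 11.77 to 12.92. The defining enzyme Fasn measured 13.38 and 14.13 and Scd1 15.20 and 15.04.

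PPARalpha drives fatty acid oxidation in fasting liver. Of its 36 listed targets, 3 rose and 0 fell, with a median of -0.23. The 8.33% that changed are near the 8.03% over all genes. Acot3, an acyl-CoA thioesterase also on the female-biased list, rose 3.95-fold, from 10.83 to 12.81. Pdk4, which restrains pyruvate oxidation, rose 3.80-fold, from 8.60 to 10.52, and the fatty acid translocase Cd36 2.61-fold, from 10.14 to 11.52. Muscle and fat express Pdk4 and Cd36 too, and markers of both tissues were higher on this array. The part of those tissues in these values was not tested. The classical targets Cyp4a10 and Cyp4a14 stayed within 2-fold, at 14.25 and 14.81, and 10.08 and 10.83.

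Few bile acid genes changed. Of 27, 3 fell and 0 rose, 11.1% beside 8.03% over all genes, with a median of -0.22. Of those that fell, Slco1a1 and Cyp7b1 are male-biased genes given above. The other was Cyp8b1, the sterol 12alpha-hydroxylase that sets the share of cholic acid, which fell 6.02-fold, from 9.50 to 6.91, and in females 2.82-fold, from 10.34 to 8.85. The rate-limiting enzyme Cyp7a1 measured 11.54 and 11.31, the canalicular export pump Abcb11 14.26 and 13.38, and the uptake transporter Slc10a1 17.47 and 17.50. Of 25 glucose and glycogen genes only the coactivator gene Ppargc1a, which brown fat and muscle express strongly, changed, from 8.33 to 9.61. None of 30 genes of the methionine cycle and one-carbon metabolism changed 2-fold in either direction, with a median of 0.07. Of 30 genes for the urea cycle and amino acid catabolism 2 rose, 6.67% beside 8.03% changed over all genes. They were the aminotransferase Got1, from 14.01 to 15.31, and the serine synthesis gene Phgdh, from 6.37 to 7.42.

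Genes of DNA damage responses were measured because AAI forms DNA adducts. Of 30 p53 targets 3 rose and 0 fell, with a median of 0.27, beside 3.47% higher over all genes. Phlda3, an inhibitor of AKT, rose 6.37-fold, from 8.30 to 10.97, and in females 3.05-fold, from 8.60 to 10.20. Ccng1, a p53-induced cyclin, rose 2.84-fold, from 9.86 to 11.37, and Gadd45a 2.44-fold, from 7.30 to 8.59. In females Ccng1 measured 10.15 and 10.58, and Gadd45a 7.57 and 7.93. The cyclin-dependent kinase inhibitor Cdkn1a measured 8.62 and 9.51 in males, and in females fell from 10.83 to 9.75. Mdm2, the ligase that degrades p53, measured 11.52 and 11.27. None of 29 nucleotide excision repair genes changed 2-fold, with a median of 0.12, and the damage sensors Xpc and Ddb2 measured 9.30 and 9.57, and 7.28 and 7.61. Of 29 cell cycle genes 2 fell and 0 rose, 6.90% beside 8.03% over all genes. The mitotic cyclin Ccnb1 fell from 8.91 to 7.51, with further probes of -0.37 and 0.01. The G1/S cyclin Ccne2 fell from 6.22 to below background, at least 2.86-fold.

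Acute phase genes were higher in part. Of 28, 8 rose and 0 fell, with a median of 0.56, beside 3.47% higher over all genes. Lcn2, an iron-siderophore binding protein, rose 16.5-fold, from 10.56 to 14.61, and its further probe gave 5.27. The serum amyloid genes Saa2 and Saa1 rose 7.84-fold and 7.26-fold, from 15.72 to 18.69 and from 15.04 to 17.90. Orm3, an orosomucoid, rose 8.08-fold, from 10.24 to 13.26. In females Saa2 fell from 15.37 to 14.20, and Saa1 measured 14.94 and 14.15. The C-reactive protein gene Crp, a weak acute phase gene in mice, measured 11.42 and 10.98 in males.

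The metallothioneins Mt1 and Mt2, which bind zinc and cadmium and respond to metals and glucocorticoids, are on the acute phase and the glucocorticoid lists. Mt2 rose 8.99-fold, from 14.53 to 17.70, and in females fell 5.84-fold, from 17.91 to 15.37. Mt1 rose 4.12-fold, from 15.99 to 18.03, and in females fell 3.07-fold, from 18.03 to 16.41. The levels in corn oil males were thus near those of AAI females, and those in AAI males near those of corn oil females. Of 22 glucocorticoid receptor targets 5 rose (22.7%, beside 3.47% over all genes) and 0 fell, with a median of 0.49. Besides Mt1 and Mt2, those that rose were Lcn2, Pdk4 and Gadd45g. The defining targets Fkbp5 and Tsc22d3 measured 12.07 and 12.64, and 13.46 and 12.50, within 2-fold in both cases.

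Secreted defence proteins of the hepatocyte were lower in part. Of 33 complement and coagulation genes, 4 fell (12.1%, beside 4.56% over all genes) and 0 rose, with a median of -0.43. All 4 encode parts of the membrane attack complex: C6 fell 5.67-fold, from 11.25 to 8.75, C8a 5.35-fold, C9 4.68-fold, from 16.92 to 14.69, and C8b 3.00-fold, from 14.13 to 12.54. In females C6 fell from 8.70 to 7.62 and C9 from 14.92 to 13.45. C6, C8a and C9 are on the male-biased list as well. Of 25 endoplasmic reticulum stress genes 2 fell, and this 8% is near the 8.03% changed over all genes. They were Creld2, from 13.05 to 11.68, and the chaperone Hspa5, from 15.52 to 14.47, with further probes of -0.72 and -0.68.

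Of 30 chemokines and receptors 5 rose and 1 fell, with a median of 0.05, beside 3.47% higher and 4.56% lower over all genes. The monocyte attractants Ccl8 and Ccl7 rose 12.1-fold, from 7.33 to 10.93, and 3.53-fold, from 5.38 to 7.20, and the neutrophil attractant Cxcl1 rose 3.45-fold, from 9.19 to 10.98. All 3 rose in females too, with Ccl8 from 7.42 to 8.93, Ccl7 from 5.67 to 7.30 and Cxcl1 from 8.64 to 9.70. Neutrophil genes were higher for 5 of 13 measured, 38.5% beside 3.47% over all genes, among them S100a8, from 10.69 to 12.13, and S100a9, from 12.29 to 13.53. The gene that fell was Cxcl10, induced by interferon, from 9.10 to 7.80, which was also the only one of 26 interferon-stimulated genes to change, with a median of -0.34. In females 12 of that list fell, with a median of -0.90.

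Some resident macrophage genes were lower. Of 17 Kupffer cell and macrophage markers 3 fell at least 2-fold in males (17.6%, beside 4.56% over all genes), with a median of -0.57. In females 12 of the list fell, with a median of -1.30. Timd4, a phosphatidylserine receptor, went from 9.50 to 8.36 and Cd5l, a secreted scavenger protein, from 15.18 to 14.13. The defining marker Clec4f measured 13.01 and 12.12 in males and fell from 13.44 to 12.03 in females. None of 14 liver endothelium markers changed 2-fold in males. Red cell genes were lower for 5 of 15 measured (33.3%, beside 4.56% over all genes), with 1 higher and a median of -0.52. The heme synthesis enzyme Alas2 fell 9.40-fold, from 13.14 to 9.90, and Hba-a1 3.81-fold, from 17.59 to 15.67. The part of blood cells in other values was not tested.

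The largest rises came mostly from genes of other tissues. Of 34 skeletal muscle markers, 32 rose and 0 fell, with a median of 4.88, and all 34 were well above background on both male arrays. The summed intensity of the list was 13328 on the corn oil array and 587589 on the AAI array. Acta1, skeletal muscle actin, went from 8.80 to 15.60, a 111-fold rise, and in females from 4.65 to 12.73. Ckm, the muscle creatine kinase, went from 6.01 to 12.21, and Myh1, a fast myosin, from 7.89 to 14.38. The troponin genes Tnni2 and Tnnc2 rose 77.0-fold and 74.2-fold, from 10.50 to 16.76 and from 10.37 to 16.58. In females 25 of the list rose, with a median of 2.93. Genes shared with heart, such as Sln, a regulator of the calcium pump, rose with them, from 7.64 to 14.02, and so did Trdn, from 4.66 to 11.10. Of 75 respiratory chain genes 2 rose, with a median of -0.03, and these were Cox6a2 and Cox7a1, isoforms of heart and skeletal muscle, from 9.06 to 15.05 and from 10.59 to 14.28. Cryab, a chaperone abundant in muscle, was the one of 20 heat shock genes to rise, from 9.72 to 13.01, while Hsp90aa1 fell from 15.02 to 13.76.

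Genes of brown and white fat were also higher. Of 13 brown fat markers 8 rose and 0 fell, with a median of 1.57. Ucp1, the uncoupling protein that defines brown fat, went from 4.98 to 12.89, a 240-fold rise and the largest measured on both arrays, and was not well above background on either female array. Cidea, a lipid droplet protein, went from 6.71 to 12.25 in males, and measured 5.37 and 6.33 in females. Of 19 fat markers 8 rose and 1 fell, with a median of 0.83, among them Cfd (adipsin), from 11.10 to 15.01, and Adipoq, from 7.72 to 11.34. Lep, the leptin gene, measured 9.76 and 9.70.

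Adrenal genes were higher in the AAI male pool. Of 17 adrenal cortex markers 10 rose and 1 fell, with a median of 1.24. The cholesterol carrier Star rose 22.4-fold, from 8.53 to 13.01, and the steroid enzymes Cyp11a1, Cyp11b1 and Cyp21a1 rose 11.1-fold, 12.9-fold and 13.8-fold. On the corn oil male array Cyp11a1 was at 6.91, Cyp11b1 at 8.57 and Cyp21a1 at 10.01. A further probe for Cyp21a1 gave a log2 ratio of only 0.45. The corticotropin receptor Mc2r was the one that fell, from 10.21 to 8.13. Cyp11b2, the aldosterone synthase of the outer zone, measured 4.94 and 4.83. Hsd3b1, the adrenal and gonadal relative of Hsd3b5, rose 15.4-fold, from 10.16 to 14.11, where Hsd3b5 fell. In females 0 of the list changed 2-fold, with Star at 5.74 and 5.31 and Hsd3b1 at 6.22 and 6.46.

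Chromaffin cells of the adrenal medulla store catecholamines with granins. Of 28 markers of these cells 13 rose and 1 fell, with a median of 0.96. The granin Chgb went from 4.90 to 12.70, a 222-fold rise, Scg2 from 5.57 to 11.02 and Chga from 8.67 to 12.51. Pnmt, which makes adrenaline, rose 3.90-fold from a level of 8.04. The defining enzymes Th and Dbh measured 11.39 and 11.93, and 8.36 and 8.72, with a further probe for Dbh at 5.11. In females 1 of the list rose and 2 fell. The markers of kidney, pancreas and intestine had medians of 0.00, 0.10 and -0.28 over 16, 22 and 11 measured genes. Kidney markers went both ways, with 2 higher and 3 lower, 31.25% beside 8.03% over all genes. Of the pancreas markers 2 fell and 0 rose, and of the intestine markers 1 fell and 0 rose. The summed intensity of the adrenal cortex list was 2.12-fold and that of the chromaffin list 1.91-fold higher, beside 1.71-fold for fat and 1.48-fold for brown fat. How far RNA of muscle, fat and adrenal gland in the AAI male pool bears on genes of the other lists was not tested.

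Of the smaller groups, 2 of 8 genes for insulin-like growth factor binding proteins rose (25%, beside 3.47% over all genes). Their list had a median of 0.21. Igfbp6 was at 9.27 and 11.39 and Igfbp5 at 7.78 and 9.37 in males, whereas Igfbp5 fell from 8.34 to 7.07 in females. Of 29 collagen and fibrosis genes 3 rose and 0 fell, 10.3% beside 8.03% over all genes, with a median of 0.47. Acta2, smooth muscle actin, rose 5.95-fold, from 10.90 to 13.47, but its 2 further probes gave -0.03 and 0.07, and Col1a1 rose 2.19-fold, from 7.37 to 8.50, with 3 further probes from -0.83 to 1.65. Probes for these genes thus did not give 1 answer. Of 18 circadian clock genes 2 fell, 11.1% beside 8.03% changed over all genes, with a median of 0.14. Clock fell from 10.10 to 8.96, with further probes of -0.15 and -0.90. Nfil3, a repressor in the clock's output, fell from 11.19 to 9.96. Of 34 nuclear receptors and xenobiotic sensors only the vitamin D receptor gene Vdr changed, from 6.65 to 4.74, close to the dimmest signals well above background. The estrogen receptor Esr1 measured 9.35 and 9.95, and Ahr 11.42 and 10.76.

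**Figure D5:**
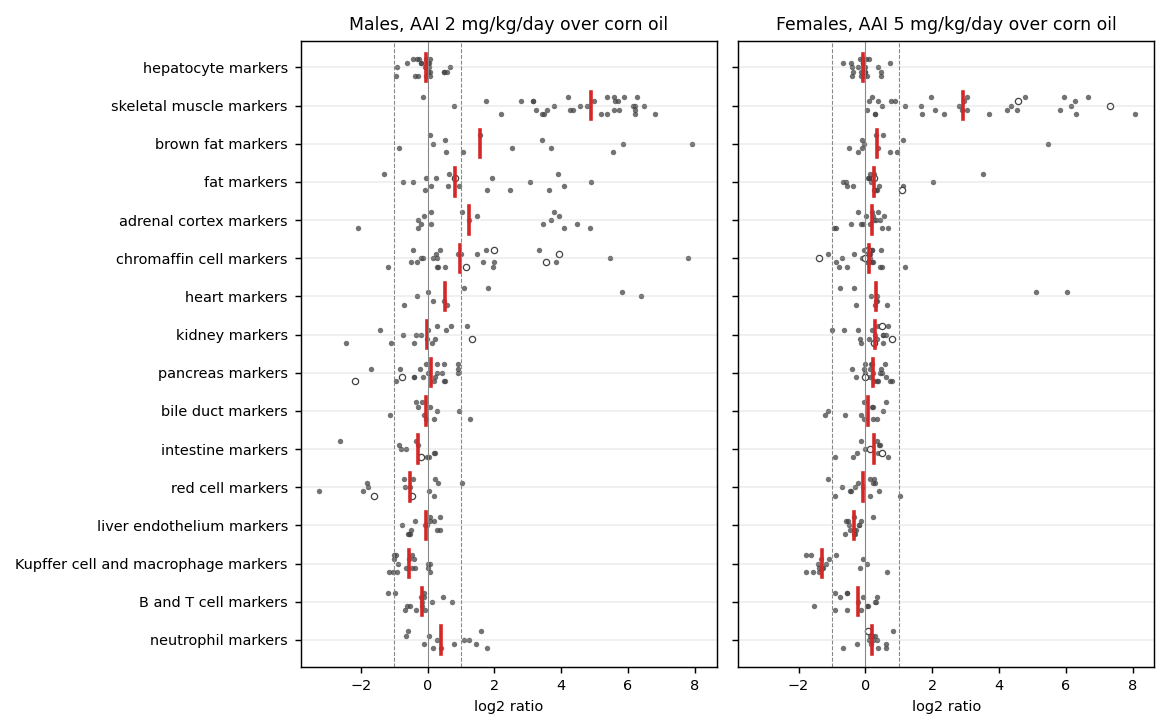
Log2 ratio of AAI over corn oil for the tissue marker lists, with males and females in separate panels, 1 point per gene and the median of each list marked. Skeletal muscle markers are far to the right in both panels, with medians of 4.88 in males and 2.93 in females, and adrenal cortex and chromaffin markers are displaced in the male panel.

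By size alone, among genes measured on both arrays whose further probes ran the same way, the 10 largest rises included Ucp1, Chgb, Acta1, Myh1, Trdn, Sln, Tnni2, 2900057B20Rik and Tnnc2. Of these, 2900057B20Rik, a transcript without an assigned function here, rose from 5.30 to 11.53 in males and measured 5.32 and 5.97 in females. The 10 largest falls were Slco1a1, Elovl3, Cyp4a12a, Mup11, Cyp4a12b, Clec2h, Cml5, Prok1, 1700026F02Rik and G6pc2. Clec2h, a C-type lectin-like gene, fell 17.2-fold, from 10.60 to 6.50, and in females 3.72-fold, from 6.92 to 5.03. Cml5, an N-acetyltransferase-like gene, fell 16.2-fold, from 11.31 to 7.29, with 4.93 and 4.65 in females. Prok1, a secreted prokineticin, fell from 8.73 to 5.15, and in females from 6.02 to 4.40. The corn oil male level was the highest of the 4 arrays for each of the 10.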

How the data were processed

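Pooled liver RNA of 4 groups was hybridised to 1 Agilent 1-colour array each, and the authors deposited the scanner files, with intensities from Feature Extraction 10.5.1.1, besides a table of raw and quantile-normalized intensities. Probes were annotated on mm9, per the file headers. From each array, control spots and outlier spots were left out, together with spots whose processed signal differed over 2-fold from the background-subtracted signal without a surrogate. Processed signals were put on the log2 scale, spots of a probe were averaged, and the arrays were quantile normalized together (Python 3.11.15, pandas 2.3.3, numpy 2.4.6). A gene's brightest probe stood for it. Normexp background correction in limma 3.58.1 (R 4.3.3, offset 50), scaling to the 75th percentile, no filter on dim probes, a 3-fold threshold, the authors' normalized table and other choices served as alternatives, and centring by probe GC content was added after seeing the data. The procedure was tested on simulated data. Depth does not apply to arrays, whose number, 1 per group, limits the precision.

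Gene names are those of the array files. The members of the 62 gene lists, and the comparison itself, were chosen with earlier results of these data known. Named were the 10 largest changes in each direction among genes whose probes ran the same way, up to 6 members of each described list with the largest changes, members that define a list, the genes for AAI metabolism and growth hormone signalling, and bright hepatocyte markers. Some genes that this rule covers are not reported here. The genes shown for their promoter, or for the probes of a family, were chosen after their values were seen.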

Additional observations from a re-analysis of the deposited data

Results flagged for a closer look

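Some lists and genes moved in opposite directions in the 2 sexes, which were given different doses. With 1 pool per group the difference between the sexes was not tested. The median log2 ratio of glucocorticoid receptor targets was 0.49 in males and -0.30 in females, that of sulfotransferase genes 0.57 and -0.55, that of Hsd3b genes -0.29 and 0.36, and that of intestine markers -0.28 and 0.24.

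Of the named genes, 7 passed 2-fold in opposite directions. Mt2, with a log2 ratio of 3.17 in males and -2.55 in females, and Mt1, with 2.04 and -1.62, are metallothioneins. Cyp2b10 had 4.35 and -1.23, and the serum amyloid gene Saa2 2.97 and -1.18. Igfbp5, which binds insulin-like growth factors, had 1.59 and -1.26. The male-biased genes Gstp1 and Cyp2d34 ran the other way, with -1.47 and 1.55 for Gstp1 and -2.38 and 1.06 for Cyp2d34.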

How the results depend on the processing

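Each pair of counts below gives the genes higher and lower with AAI in males. Against 1058 and 1389 as reported, normexp background correction gave 507 and 627, no filter on dim probes 1784 and 2227, and a 3-fold threshold 471 and 493. The other alternatives, among them the authors' normalized table with 1103 and 1450, stayed within 1.5 times. The lower genes made up 56.8% of the changed genes as reported, and 51.1% to 57.5% under the alternatives. Of 558 list medians under the alternatives, 544 moved by less than the 0.24 SD between probes. Under normexp the median log2 ratio was 0.98 for female-biased genes, 0.23 for CAR and PXR targets, 3.50 for Cyp2b genes, 0.27 for sulfotransferases, 3.87 for skeletal muscle, 0.64 for brown fat, 0.49 for fat and 0.51 for chromaffin markers. With all probes of a gene averaged it was -1.59 for male-biased genes, 3.71 for Cyp2b genes and 3.87 for skeletal muscle. Without the filter it was 3.87 for Cyp2b genes and 1.31 for brown fat markers, and with background-subtracted signals 0.71 for chromaffin markers. Each of these medians kept its sign. The cause of these shifts was not tested. Of 1621 values of named genes, 1519 moved by less than that SD and 1 changed sign from beyond 2-fold: Mc2r measured 0.96 with its probes averaged. Some genes counted as changed went under 2-fold in at least 1 alternative. Among them the smallest log2 ratios were 0.74 for Acss2, 0.66 for Phgdh, -0.82 for Hspa5, -0.86 for Cd5l and -0.55 for Clock.

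No paired analysis was possible because each group is 1 array, and for the same reason no replicate was left out. A change near the background of an array is a bound, and the spread between mice was not measured.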
